A study of Mus musculus with 6 samples.

Results

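The zinc finger genes described here are the 162 genes of the deposited expression table whose symbol is Zfp followed by a digit, out of 8191 listed genes. They were picked by name alone. GENCODE M21 (GRCm38) holds 394 protein-coding genes named in this way, and the 162 are 41.1% of them. The table lists only genes that passed the authors' one-way ANOVA over the 3 genotypes at a p-value under 0.05, so the other 232 were not analysed here, and each listed gene had already been chosen for a difference between the groups.

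Gene expression was measured by mRNA-seq in myeloid-derived suppressor cells (MDSCs), immature CD11b+ Gr-1+ myeloid cells that restrain T cells and accumulate with age. The cells were isolated from the spleens of aged BALB/c mice that were wild type (WT), lacked TNF receptor 1 (Tnfr1-/-) or lacked TNF receptor 2 (Tnfr2-/-), with 2 samples of each genotype. Cells of 5 mice were pooled per experiment and 2 independent experiments were done, and no cells were cultured or treated. Values are FPKM, in which fragment numbers are divided by transcript length and by library size, so levels can be compared between genes, but the read depth behind each value is unknown.

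Zinc finger proteins hold a zinc ion in a small loop of the chain, and most fingers of the C2H2 type, named for the cysteine and histidine pairs that bind the metal, contact bases of DNA. Many mammalian Zfp proteins carry a KRAB domain, which recruits the corepressor TRIM28 and with it histone methylation and heterochromatin, often over transposable elements. KRAB genes multiplied by tandem duplication and lie in clusters. Other members bind RNA, attach ubiquitin or SUMO, or act at the mitotic spindle. Zfp36, among the best known Zfp genes of myeloid cells, encodes a CCCH protein that leads TNF mRNA to decay. Zfp36 and its 3 relatives Zfp36l1, Zfp36l2 and Zfp36l3 were not among the listed genes (0 of 4).

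All 162 genes matched GENCODE M21 by symbol and lie on 20 chromosomes, 37 of them on chromosome 7, 21 on chromosome 17 and 20 on chromosome 13. In their translated coding sequences 159 held at least 1 C2H2 finger, with a median of 10 and at most 33 (Zfp462), and 3 held none by the pattern used (Zfp185, Zfp503 and Zfp703). A KRAB A box was found in 89 and not in 73, and 8 held a SCAN domain, which joins zinc finger proteins in pairs. The 89 KRAB genes had a median of 12 fingers, against 7 in the 73 others.

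The promoters of 4 members are shown because these genes had the largest rises and falls in Tnfr2-/- MDSCs among members with a window in RefSeq's promoter table (GRCm38.p6). Each window runs from 250 bases before to 50 bases after a transcript start, 5′ to 3′ on the gene's strand. Capitals mark matches on either strand to the CCAAT box, to the GC box GGGCGG or to the ETS core CCGGAAG. Zfp971 (chr2:178023034-178023333, plus strand) and Zfp868 (chr8:69625499-69625798, minus strand) are 2 KRAB genes that rose. Zfp948 (chr17:21566728-21567027, plus strand) and Zfp385a (chr15:103340037-103340336, minus strand) fell. For Zfp868 and Zfp385a the table holds 2 windows, and the first is printed.
Zfp971: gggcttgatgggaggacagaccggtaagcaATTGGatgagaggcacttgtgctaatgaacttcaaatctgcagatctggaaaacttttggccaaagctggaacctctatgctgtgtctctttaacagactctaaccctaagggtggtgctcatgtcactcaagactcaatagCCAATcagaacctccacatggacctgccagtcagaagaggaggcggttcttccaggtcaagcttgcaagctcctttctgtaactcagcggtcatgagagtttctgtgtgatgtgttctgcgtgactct
Zfp868: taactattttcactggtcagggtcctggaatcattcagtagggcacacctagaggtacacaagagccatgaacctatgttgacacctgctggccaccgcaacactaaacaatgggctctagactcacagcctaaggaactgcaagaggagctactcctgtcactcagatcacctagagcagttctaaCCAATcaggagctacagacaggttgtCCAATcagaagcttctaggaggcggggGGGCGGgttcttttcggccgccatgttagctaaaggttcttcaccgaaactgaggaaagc
Zfp948: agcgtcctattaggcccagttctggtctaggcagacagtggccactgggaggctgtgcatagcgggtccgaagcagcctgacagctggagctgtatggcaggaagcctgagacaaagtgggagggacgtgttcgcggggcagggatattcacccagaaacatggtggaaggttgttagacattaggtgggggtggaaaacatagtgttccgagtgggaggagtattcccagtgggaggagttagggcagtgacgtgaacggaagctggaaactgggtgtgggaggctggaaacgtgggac
Zfp385a: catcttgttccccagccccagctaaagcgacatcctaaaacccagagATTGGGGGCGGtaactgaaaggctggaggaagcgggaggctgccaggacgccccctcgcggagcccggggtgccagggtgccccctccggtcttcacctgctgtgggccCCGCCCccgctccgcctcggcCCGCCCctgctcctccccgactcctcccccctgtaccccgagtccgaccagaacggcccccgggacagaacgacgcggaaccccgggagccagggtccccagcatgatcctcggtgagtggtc
The windows of Zfp971 and Zfp868 each held 2 CCAAT matches, and that of Zfp868 also held 1 GC box. That of Zfp948 held none of the 3 motifs. That of Zfp385a held 3 GC boxes and 1 CCAAT match that abuts the first GC box without overlap. CG dinucleotides numbered 4 and 6 in the windows of Zfp971 and Zfp868, 10 in that of Zfp948 and 23 in that of Zfp385a.

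Over the 165 windows of the 131 members found in that table, 43.0% held a GC box, against 35.7% of all 32851 windows. CCAAT was in 44.8% against 37.4%, and the ETS core in 19.4% against 8.86%. TATAAA was in 4.24% against 13.6%, TGANTCA (AP-1) in 2.42% against 7.81%, and TGACGTCA (CRE) in 4.24% against 1.79%. The median GC content of the windows was 55.3%, against 52.7% over all. Members called higher in Tnfr2-/- against WT had a median of 12.5 CG dinucleotides per window (34 windows), those called lower 17 (49 windows) and those not called 13 (82 windows). The ETS core was in 14.7% of the windows of members called higher and in 24.5% of those called lower. All 32851 windows belong to 27025 genes, listed or not, and the members were not compared with the other listed genes. These matches are descriptions of sequence, and many windows of one gene overlap.

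Tnfrsf1b, which encodes TNFR2, was at 112 and 115 FPKM in the WT samples, 47.8 and 69.6 FPKM in the Tnfr1-/- samples and 11.3 and 14.3 FPKM in the Tnfr2-/- samples, lowest under the Tnfr2-/- label. Tnfrsf1a, which encodes TNFR1, is not among the listed genes. The libraries labelled WT went against the MDSC label in Ly6c1 and in the granulocyte and macrophage markers, but not in Ptprc. Ly6c1, part of the Gr-1 epitope, was at 0.159 and 0.0638 FPKM in WT, 95.8 and 99.6 FPKM in Tnfr1-/-, and 121 and 178 FPKM in Tnfr2-/-. Ptprc encodes CD45, which the paper used with Gr-1 and CD11b to check purity. It was at 98.2 and 105 FPKM in WT, 229 and 271 FPKM in Tnfr1-/-, and 267 and 237 FPKM in Tnfr2-/-. Itgam (CD11b), Ly6g and Ly6c2 are not listed. The 3 listed granulocyte markers of 11 summed to 13.7 to 15.4 FPKM in the WT samples, against 2732 to 3070 FPKM in Tnfr1-/- and 1522 to 2450 FPKM in Tnfr2-/-. All 10 macrophage markers are listed and summed to 4736 to 5184 FPKM in the WT samples, against 338 to 398 FPKM in Tnfr1-/- and 619 to 713 FPKM in Tnfr2-/-. The listed markers of B cells (4 of 5) summed to 46.5 to 46.9, 318 to 382 and 167 to 299 FPKM, those of dendritic cells (4 of 6) to 228 to 231, 16.3 to 18 and 24.4 to 25.4 FPKM, those of T and NK cells (3 of 7) to 32.7 to 36.4, 37.6 to 43.0 and 20.1 to 22.9 FPKM, and those of monocytes (5 of 6) to 245 to 258, 307 to 362 and 587 to 725 FPKM, in the same order of genotypes. Some of these sums hide members that went opposite ways. In the monocyte sum Csf1r fell from 225 and 237 FPKM in WT to 137 and 171 FPKM in Tnfr2-/- (log2 change −0.59, but 0.40 after median-ratio scaling), and the other 4 listed markers rose, by log2 changes from 3.75 (Ccr2) to 7.06 (Ly6c1). In the T and NK cell sum Cd4 fell from 24.2 and 25.7 FPKM in WT to 3.86 and 4.56 FPKM in Tnfr2-/-, and Cd3d rose from 3.21 and 3.39 to 13.1 and 6.78 FPKM. The dendritic cell sum in WT was mostly Itgax, which fell from 219 and 216 FPKM to 13.3 and 17.1 FPKM in Tnfr2-/-. Flt3 rose from 0.156 and 0.260 to 2.34 and 1.82 FPKM, and the other 2 listed dendritic markers were not called in Tnfr2-/-. Of platelet markers 1 of 4 is listed, at 104 to 118, 4.14 to 4.24 and 3.12 to 4.30 FPKM, and of erythroid markers 0 of 6. The WT values were also written with up to 10 significant digits and those of both knockouts with up to 6. Every comparison with WT below rests on both WT libraries, and the part of cell makeup and file format in these comparisons was not tested. In such bulk samples, fewer cells of a type and less RNA per cell cannot be told apart.

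The Zfp genes were mostly weakly expressed. Their median level was 2.59 and 2.56 FPKM in the WT samples, 2.13 and 2.09 FPKM in Tnfr1-/- and 1.99 and 2.04 FPKM in Tnfr2-/-, against medians over all listed genes of 9.02 and 8.80, 4.81 and 4.68, and 4.83 and 5.28 FPKM. The mean over the 6 samples was under 1 FPKM for 43 members, from 1 to 10 FPKM for 103 and at least 10 FPKM for 16. In 5 members, Zfp185, Zfp334, Zfp385c, Zfp462 and Zfp641, at least 1 sample was listed at 0. Replicates lay close together, with a median absolute log2 difference between the 2 samples of 0.064 in WT, 0.089 in Tnfr1-/- and 0.102 in Tnfr2-/-, against 0.062, 0.095 and 0.148 over all listed genes.

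Summed over the 162 genes, Zfp expression was 781.8 and 747.9 FPKM in WT, 623.2 and 637.9 FPKM in Tnfr1-/-, and 630.1 and 634.8 FPKM in Tnfr2-/-. All listed genes together summed to 344714 and 346870 FPKM in WT, 134343 and 133604 FPKM in Tnfr1-/-, and 148956 and 155248 FPKM in Tnfr2-/-. As a share of the listed sum, Zfp expression was therefore 0.227% and 0.216% in WT, 0.464% and 0.477% in Tnfr1-/-, and 0.423% and 0.409% in Tnfr2-/-. Both knockouts were below WT in the sum and above WT in the share, with no overlap between WT and knockout samples in either measure.

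Compared with WT MDSCs, Tnfr2-/- MDSCs had 31 of the 162 Zfp genes higher (19.1%, against 13.6% of all listed genes) and 49 lower (30.2%, against 57.1%), and 82 were not called. A gene was called with limma at a Benjamini-Hochberg adjusted p-value under 0.05 over all 8191 genes and a fold change over 1.5 on the log2(FPKM + 1) scale. The median log2 change of the 162 was −0.307, against −0.736 over all listed genes. Median-ratio scaling, which sets the typical listed gene to equal levels and brings that median of all genes from −0.736 to −0.032, gave 58 higher (35.8%, against 21.8%) and 11 lower (6.79%, against 21.0%), with a Zfp median of 0.278. All 31 genes called higher were also called higher with this scaling. Of the 49 called lower, 35 kept a negative sign with it, 11 were still called lower and 14 turned positive. Quantile normalization gave 59 higher (against 20.6%) and 9 lower (against 22.6%), and a pseudocount of 0.1 in place of 1 gave 49 higher (against 16.6%) and 79 lower (against 66.3%). Without the fold threshold 61 were higher (against 19.8%) and 92 lower (against 74.8%). On all 4 of these scales, and without the fold threshold, the Zfp genes had a larger share of calls upward and a smaller share downward than the table as a whole, whereas the sign of their median depended on the scale.

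**Figure D1:**
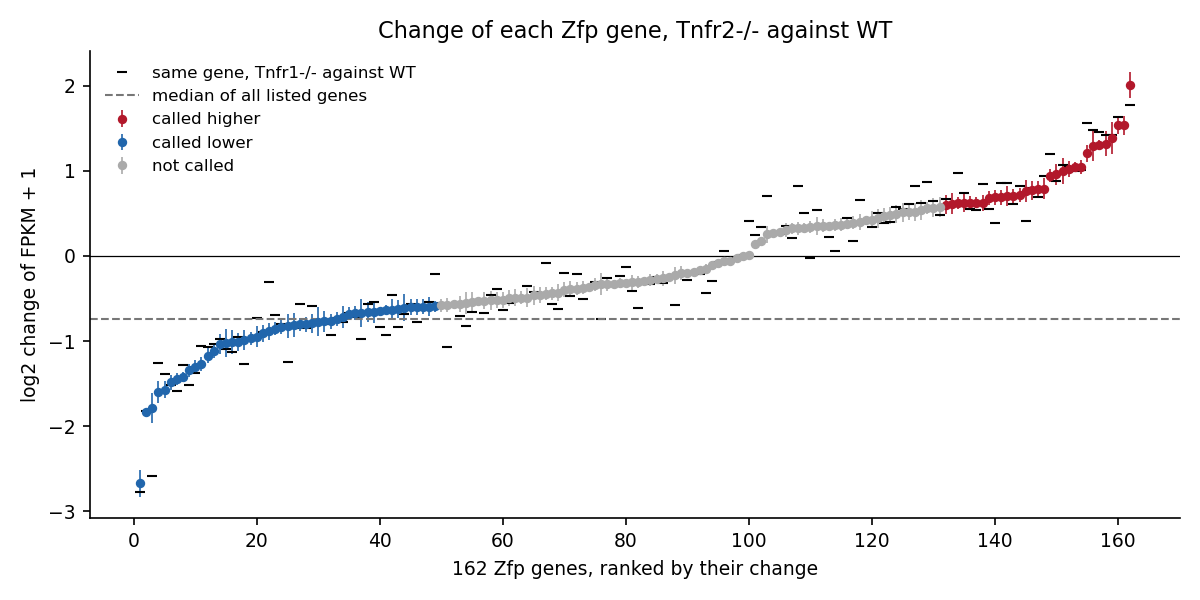
Log2 change of FPKM + 1 in Tnfr2-/- against WT for the 162 Zfp genes in rank order (points, with the standard error of the limma fit; colors give the call), with the change of the same gene in Tnfr1-/- against WT (black dashes) and the median of all listed genes (dashed line, −0.736). The points run from −2.67 to 2.01, and most lie above the dashed line.

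Tnfr1-/- MDSCs gave close counts against the same WT samples, with 34 members higher (21.0%, against 14.1% of all listed genes), 49 lower (30.2%, against 60.7%) and 79 not called in the same limma fit. The median log2 change was −0.287, against −0.827 over all listed genes. Median-ratio scaling gave 62 higher (38.3%, against 23.3%) and 7 lower (4.32%, against 22.1%), with a median of 0.380 against −0.033. All 34 higher calls stayed higher calls, and of the 49 lower calls 32 stayed negative, 7 of them as calls, and 17 turned positive. The counts were 64 higher (against 21.2%) and 8 lower (against 25.1%) with quantile normalization, and 48 higher (against 17.2%) and 76 lower (against 69.0%) with a pseudocount of 0.1, and 61 higher (against 20.3%) and 93 lower (against 76.0%) without the fold threshold. Since both comparisons use the WT samples, their values are given side by side and no overlap between them is counted as a result.

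**Figure D2:**
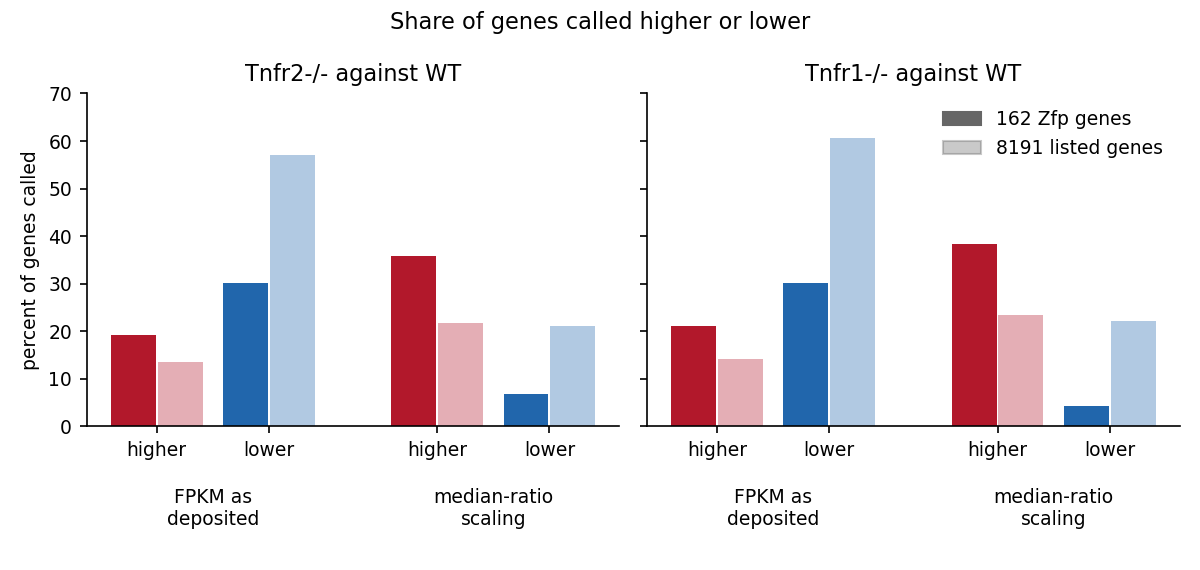
Percent of the 162 Zfp genes (dark bars) and of all 8191 listed genes (light bars) called higher (red) or lower (blue) than WT, from FPKM as deposited and after median-ratio scaling, for Tnfr2-/- (left) and Tnfr1-/- (right). In both comparisons and on both scales the dark bar exceeds the light one for higher calls and falls short of it for lower calls.

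Sample by sample, 62 of the 162 genes (38.3%, against 21.1% of all listed genes) were higher in both Tnfr2-/- samples than in both WT samples, and 98 (60.5%, against 77.2%) were lower in both. For Tnfr1-/- the counts were 63 higher (38.9%, against 21.7%) and 97 lower (59.9%, against 77.3%). These counts are on FPKM as deposited, where the table had been filtered on the same groups.

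The largest rise in Tnfr2-/- MDSCs was that of Zfp971, a KRAB gene with 12 fingers on chromosome 2. It was at 3.51 and 3.30 FPKM in WT, 13.5 and 14.6 FPKM in Tnfr1-/-, and 14.4 and 19.3 FPKM in Tnfr2-/-. All knockout samples were above all WT samples, by a log2 change of 2.01 (SE 0.15, limma adjusted p = 0.000220) in Tnfr2-/- and 1.77 (adjusted p = 0.000280) in Tnfr1-/-. Cut into windows of 50 bases, its transcript shares 51.1% of them with other genes, most with Zfp968 (28.2%), so its level is uncertain where reads were split between copies.

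Zfp868, a KRAB gene with 9 fingers, was at 3.0 and 3.58 FPKM in WT, 11.5 and 11.3 FPKM in Tnfr1-/-, and 10.7 and 12.1 FPKM in Tnfr2-/-. Its log2 change was 1.53 (SE 0.11, limma adjusted p = 0.000186) in Tnfr2-/- and 1.53 (adjusted p = 0.000163) in Tnfr1-/-. The knockouts overlapped and both lay clear of WT. Its neighbor Zfp869 had a log2 change of 0.44 in Tnfr2-/- and was not called.

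Zfp740, a protein of 191 residues with 2 fingers and no KRAB box, was among the most abundant members. It was at 9.52 and 9.72 FPKM in WT, 30.4 and 33.7 FPKM in Tnfr1-/-, and 32.1 and 27.5 FPKM in Tnfr2-/-. It rose by a log2 change of 1.53 (SE 0.10, limma adjusted p = 0.000156) in Tnfr2-/- and 1.64 (adjusted p = 0.000114) in Tnfr1-/-. The values of the knockouts overlapped.

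Zfp516, which takes part in the brown fat program with PRDM16, was at 1.56 and 1.40 FPKM in WT, 6.43 and 4.97 FPKM in Tnfr1-/-, and 6.52 and 4.57 FPKM in Tnfr2-/-. Zfp281, a regulator of pluripotent cells that binds G-rich DNA, was at 5.10 and 4.75 FPKM in WT, 13.1 and 17 FPKM in Tnfr1-/-, and 14.6 and 12.9 FPKM in Tnfr2-/-. Both rose in both knockouts, with log2 changes in Tnfr2-/- of 1.38 (SE 0.19) for Zfp516 and 1.32 (SE 0.14) for Zfp281. In Tnfr1-/- MDSCs Zfp831 and Zfp760 were also among the 5 largest rises. Zfp831 was at 0.236 and 0.205 FPKM in WT, 2.50 and 2.72 FPKM in Tnfr1-/-, and 2.07 and 1.57 FPKM in Tnfr2-/-, and Zfp760 at 0.496 and 0.516, 3.17 and 3.20, and 3.43 and 2.07 FPKM.

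Zfp703 fell furthest in both knockouts. It encodes a corepressor of the NET family, which has no canonical row of C2H2 fingers, and was at 68.2 and 65.0 FPKM in WT, 7.48 and 10.6 FPKM in Tnfr1-/-, and 9.63 and 9.66 FPKM in Tnfr2-/-. In the WT samples it was close to Zfp207 as the most abundant member. The log2 change was −2.67 (SE 0.16, limma adjusted p = 0.000111) in Tnfr2-/- and −2.77 (adjusted p = 8.83e-05) in Tnfr1-/-, and −1.71 in Tnfr2-/- after median-ratio scaling. Zfp503, the other member of the NET family, was at 4.13 and 3.93 FPKM in WT, 0.630 and 0.898 FPKM in Tnfr1-/-, and 0.771 and 0.829 FPKM in Tnfr2-/-, and fell in both as well.

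Zfp948, a KRAB gene with 15 fingers, was at 4.19 and 3.99 FPKM in WT, 0.421 and 0.461 FPKM in Tnfr1-/-, and 0.437 and 0.411 FPKM in Tnfr2-/-. Its log2 change of −1.84 (SE 0.05, limma adjusted p = 1.22e-05) in Tnfr2-/- was the largest fall of a KRAB gene. Zfp385a, a p53 partner that binds RNA, was at 41.7 and 38.5 FPKM in WT, 5.88 and 5.87 FPKM in Tnfr1-/-, and 9.02 and 13.2 FPKM in Tnfr2-/-. It fell by 1.79 on the log2 scale (SE 0.18) in Tnfr2-/- and by 2.58 in Tnfr1-/-. Here the knockouts did not overlap, with Tnfr2-/- above Tnfr1-/- by a log2 difference of 0.79, but this difference missed the threshold (limma unadjusted p = 0.00659, adjusted p = 0.0811).

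Zfp523 was at 8.60 and 7.50 FPKM in WT, 2.66 and 2.91 FPKM in Tnfr1-/-, and 2.25 and 1.73 FPKM in Tnfr2-/-. Zfp688, a KRAB gene with only 2 fingers, was at 6.78 and 6.66 FPKM in WT, 2.19 and 1.73 FPKM in Tnfr1-/-, and 1.60 and 1.61 FPKM in Tnfr2-/-. Zfp90, a KRAB gene with 13 fingers, was at 5.39 and 5.71 FPKM in WT, 1.25 and 1.11 FPKM in Tnfr1-/-, and 1.42 and 1.40 FPKM in Tnfr2-/-. All 3 fell in both knockouts, and in Tnfr2-/- all 3 were also called lower after median-ratio scaling. The 11 members called lower in Tnfr2-/- on that scale were Zfp703, Zfp948, Zfp532, Zfp385a, Zfp503, Zfp704, Zfp523, Zfp688, Zfp970, Zfp90 and Zfp28, of which Zfp704, Zfp970 and Zfp28 are named after their values were seen.

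**Figure D3:**
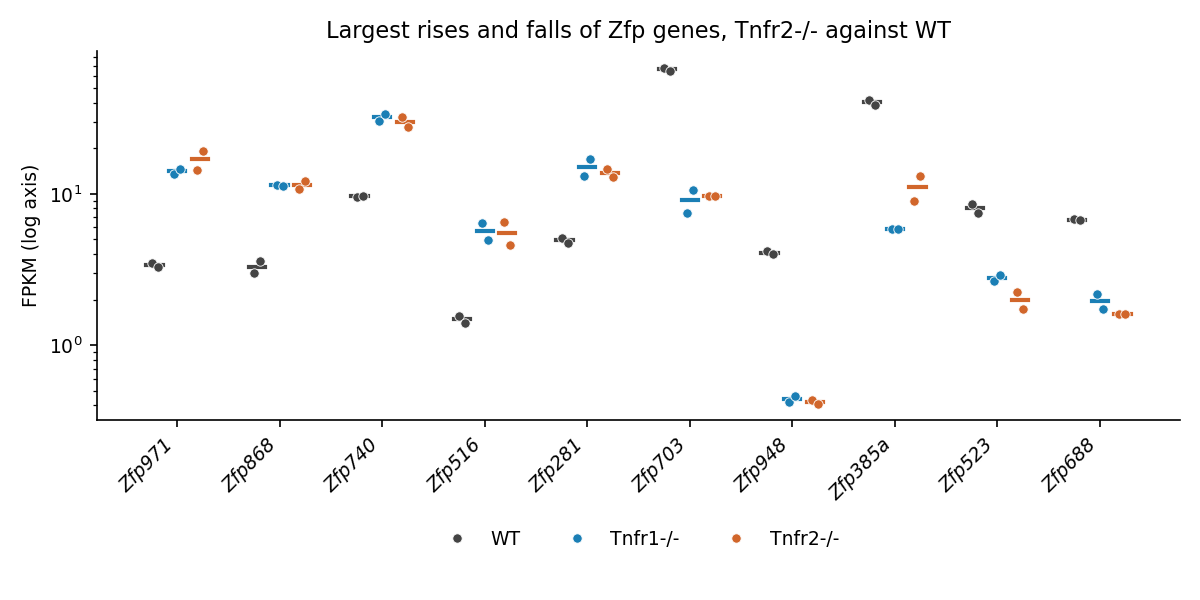
FPKM (log axis) of the 5 Zfp genes that rose most and the 5 that fell most in Tnfr2-/- against WT, with each sample as a point and each group mean as a bar. In all 10 genes both knockout groups lie on one side of WT, and Zfp703 ranges from 7.48 to 68.2 FPKM. The genes were picked for a Tnfr2-/- group clear of WT. Every knockout sample was above every WT sample in 37.0% of members, against 19.9% of all listed genes. Every knockout sample was below every WT sample in 59.9%, against 76.4%.

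Of 13 members known for handling RNA or proteins rather than for silencing genes, 6 are in the table. In Tnfr2-/- MDSCs 0 of the 6 were higher and 4 lower (66.7%, against 57.1% of all listed genes), with a median log2 change of −0.641 against −0.736. In Tnfr1-/- 0 were higher and 5 lower (83.3%, against 60.7%), with a median of −0.702 against −0.827. After median-ratio scaling 0 were higher and 1 lower in each comparison, with medians of 0.292 and 0.371, so most of these falls depended on the scale. With that scaling 21.8% of all listed genes were higher and 21.0% lower in Tnfr2-/-, and 23.3% and 22.1% in Tnfr1-/-. Zfp207, which binds microtubules and BUB3 at the mitotic spindle, was the most abundant member, at 70.4 and 64.8 FPKM in WT, 42.5 and 38.7 FPKM in Tnfr1-/-, and 40.9 and 43.3 FPKM in Tnfr2-/-. Its log2 change was −0.67 (limma adjusted p = 0.00116) in Tnfr2-/- as deposited and 0.31 after median-ratio scaling, so its direction depends on the scale.

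Zfp91, a ubiquitin ligase of the noncanonical NF-κB pathway, was at 31.1 and 29.4 FPKM in WT, 20.1 and 18.3 FPKM in Tnfr1-/-, and 19.5 and 22.2 FPKM in Tnfr2-/-. It was called lower in Tnfr1-/- (log2 change −0.63, but −0.57 and not called without Tnfr1-/- replicate 2) and had a log2 change of −0.52 in Tnfr2-/-, under the fold threshold, which became −0.61 and a call without Tnfr2-/- replicate 2. Zfp598, a ubiquitin ligase that marks collided ribosomes, was at 15.8 and 15.4 FPKM in WT, 10.5 and 8.29 FPKM in Tnfr1-/-, and 8.70 and 11.2 FPKM in Tnfr2-/-. Its fall in Tnfr2-/- (log2 change −0.61) was no longer called without either WT sample (−0.60 and −0.63) or without Tnfr2-/- replicate 1 (−0.45). Zfp326, a splicing factor of the DBIRD complex, was at 6.91 and 6.79 FPKM in WT, 2.62 and 2.57 FPKM in Tnfr1-/-, and 2.42 and 3.42 FPKM in Tnfr2-/-, with a log2 change of −1.01 in Tnfr2-/- as deposited and −0.20 after median-ratio scaling. Zfp451, a SUMO ligase, had a log2 change of −0.45 in Tnfr2-/- and was not called. Zfp91, Zfp207, Zfp451 and Zfp598 turned positive after median-ratio scaling, and Zfp385a and Zfp326 did not.

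DNA-binding members with described roles went both ways. Of 32 on the list, 19 are in the table, and 8 were higher (42.1%, against 13.6% of all listed genes) and 7 lower (36.8%, against 57.1%) in Tnfr2-/- (median log2 change −0.022). In Tnfr1-/- 8 were higher (against 14.1%) and 6 lower (31.6%, against 60.7%), with a median of −0.021. After median-ratio scaling 9 were higher (47.4%) and 3 lower (15.8%) in each comparison. The shares of all listed genes were then 21.8% and 21.0% in Tnfr2-/-, and 23.3% and 22.1% in Tnfr1-/-. Besides Zfp281 and Zfp516, the members higher in Tnfr2-/- were Zfp148 (log2 change 0.71), a G-rich promoter binder, Zfp217 (0.79), a partner of the CoREST repressor complex, Zfp292 (0.69), Zfp407 (1.04), Zfp592 (0.62) and Zfp687 (0.99). Zfp407 was at 0.498 and 0.510 FPKM in WT, 2.03 and 1.99 FPKM in Tnfr1-/-, and 1.99 and 2.21 FPKM in Tnfr2-/-, so that no knockout sample came near WT.

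Zfp592, Zfp687 and Zfp532 encode proteins of one chromatin complex with ZMYND8, and they did not move together. Zfp592 was at 7.78 and 6.48 FPKM in WT, 12.6 and 12.4 FPKM in Tnfr1-/-, and 11.9 and 11.1 FPKM in Tnfr2-/-. Zfp687 was at 2.75 and 2.55 FPKM in WT, 6.95 and 6.30 FPKM in Tnfr1-/-, and 7.31 and 5.34 FPKM in Tnfr2-/-. Zfp532 was at 1.96 and 1.92 FPKM in WT, 0.281 and 0.140 FPKM in Tnfr1-/-, and 0.0974 and 0.106 FPKM in Tnfr2-/-. The first 2 rose and Zfp532 fell in both knockouts (log2 change −1.42 in Tnfr2-/-, limma adjusted p = 4.25e-05), and none of the 3 changed direction after median-ratio scaling. The call of Zfp592 in Tnfr2-/- was lost without WT replicate 2 (log2 change 0.51) and without Tnfr2-/- replicate 1 (0.58).

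The other members lower in Tnfr2-/- besides Zfp703, Zfp503 and Zfp532 were Zfp219 (log2 change −1.30), Zfp410 (−1.03), Zfp568 (−0.99) and Zfp609 (−0.59). Zfp219 is a partner of SOX9, and Zfp568 is a KRAB protein that silences a transcript of Igf2. Zfp609 turned positive after median-ratio scaling and was at −0.58, under the fold threshold, without Tnfr2-/- replicate 1. Zfp410, known as an activator of Chd4, was at 8.07 and 8.05 FPKM in WT, 3.78 and 2.78 FPKM in Tnfr1-/-, and 3.03 and 3.92 FPKM in Tnfr2-/-. Zfp110, Zfp384, Zfp462 and Zfp644 were not called in Tnfr2-/-. Zfp110 was called higher without WT replicate 1 (0.60) and without Tnfr2-/- replicate 1 (0.64). The log2 changes of the 4 were 0.57, −0.49, −0.02 and −0.34, and those of Zfp384 and Zfp644 were positive after median-ratio scaling. Zfp462 was at or under 0.0191 FPKM in every sample.

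Of the 89 KRAB genes 18 were higher (20.2%, against 13.6% of all listed genes) and 19 lower (21.3%, against 57.1%) in Tnfr2-/-, with a median log2 change of −0.112. Of the 73 genes without a KRAB box 13 were higher (17.8%) and 30 lower (41.1%), with a median of −0.491. In Tnfr1-/- the counts were 18 higher and 20 lower of 89 (median −0.127) against 16 higher and 29 lower of 73 (median −0.498), beside 14.1% and 60.7% of all listed genes. After median-ratio scaling 38 KRAB genes were higher (42.7%) and 5 lower (5.62%) in Tnfr2-/-, with a median of 0.280. Of the others 20 were higher (27.4%) and 6 lower (8.22%), with a median of 0.244. Of all listed genes 21.8% were higher and 21.0% lower on that scale. The KRAB genes also had lower levels, with a median over genes of the mean FPKM of 1.69 against 4.19, and adding 1 to each value shrinks the log2 changes of low genes. The difference between the classes is a description and was not tested.

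By finger number, 3 of the 21 members with under 4 fingers were higher and 13 lower in Tnfr2-/- (median −0.601). Of the 49 with 4 to 9 fingers 8 were higher and 14 lower (median −0.250), and of the 92 with 10 or more 20 were higher and 22 lower (median −0.230). Lower calls were thus 61.9%, 28.6% and 23.9% of these classes, beside 57.1% of all listed genes. After median-ratio scaling the higher and lower members numbered 3 and 5 of 21 (median 0.105), 19 and 1 of 49 (median 0.360) and 36 and 5 of 92 (median 0.256). Of the 8 SCAN genes 0 were higher and 4 lower in Tnfr2-/- and 2 were higher and 1 lower in Tnfr1-/-, and after median-ratio scaling 2 were higher and 0 lower in both. In transcripts, members called higher in Tnfr2-/- had a median length of 4835 bases and a median GC content of 40.5%, those called lower 3164 bases and 48.9%, and those not called 3712 bases and 43.2%. Across the 162 genes the log2 change in Tnfr2-/- had a Spearman correlation of 0.221 with length and −0.352 with GC content, against 0.275 and −0.156 across the 8166 listed genes with a length. These correlations are across genes of the same libraries, which are not independent replicates.

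In the genome, 88 of the 162 genes lay in 24 clusters whose neighboring members are at most 500 kb apart, and 74 lay alone. The largest cluster held 13 genes on chromosome 13 from 67038596 to 67755228 (GRCm38), all with a KRAB box. In Tnfr2-/- MDSCs 5 of these 13 were higher (Zfp712, Zfp729a, Zfp729b, Zfp85 and Zfp874b) and 0 lower, with log2 changes from −0.561 to 1.020, and after median-ratio scaling 8 were higher and 0 lower (all listed genes: 13.6% higher and 57.1% lower as deposited, 21.8% and 21.0% after scaling). Zfp729a was at 1.73 and 1.68 FPKM in WT, 4.25 and 4.90 FPKM in Tnfr1-/-, and 4.60 and 4.36 FPKM in Tnfr2-/-. Zfp708 of the same cluster shares 94.9% of its 50-base windows with other genes and Zfp729b 39.9%, so the levels of these neighbors are uncertain.

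Within clusters some neighbors had the same direction and others opposite directions. In 14 of the 24 clusters the log2 changes in Tnfr2-/- had both signs, and 5 clusters held both a called rise and a called fall, against 14 and 2 after median-ratio scaling. Among 64 pairs of adjacent members 35 had the same sign and 28 opposite signs, and 1 had no sign, since Zfp185 was listed at 0 in the WT and Tnfr2-/- samples. After median-ratio scaling 39 pairs had the same sign and 24 opposite signs. Of the 13 pairs in which both were called 10 moved the same way and 3 opposite ways, against 11 and 1 after median-ratio scaling. As deposited 63 of the 162 members had a positive change and 98 a negative one. Whether neighbors shared a sign more often than other members was not tested. On chromosome 17 from 21450374 to 21845772, Zfp51 (log2 change 0.79) and Zfp760 (1.29) rose, and Zfp52 (−0.60) and Zfp948 (−1.84) fell, all 4 being KRAB genes. After median-ratio scaling Zfp52 turned to 0.15. On chromosome 7 from 24193947 to 24301232, all 5 members had negative changes, from −0.720 to −0.295, and 2 of them were called lower, against changes from −0.217 to −0.006 and 0 calls after median-ratio scaling. On chromosome 7 from 127244274 to 127885996, 5 of 7 members were lower and Zfp646 was higher. Of these 5 falls, that of Zfp688 was still called after median-ratio scaling (−0.79), Zfp629 stayed negative without a call (−0.16), and Zfp771 (0.15), Zfp768 (0.01) and Zfp764 (0.08) turned positive. Over all listed genes 57.1% were lower as deposited. Zfp646 overlaps Zfp668 on the other strand, and Zfp882 overlaps Zfp617 on the same strand, so reads of these pairs may not be told apart.

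**Figure D4:**
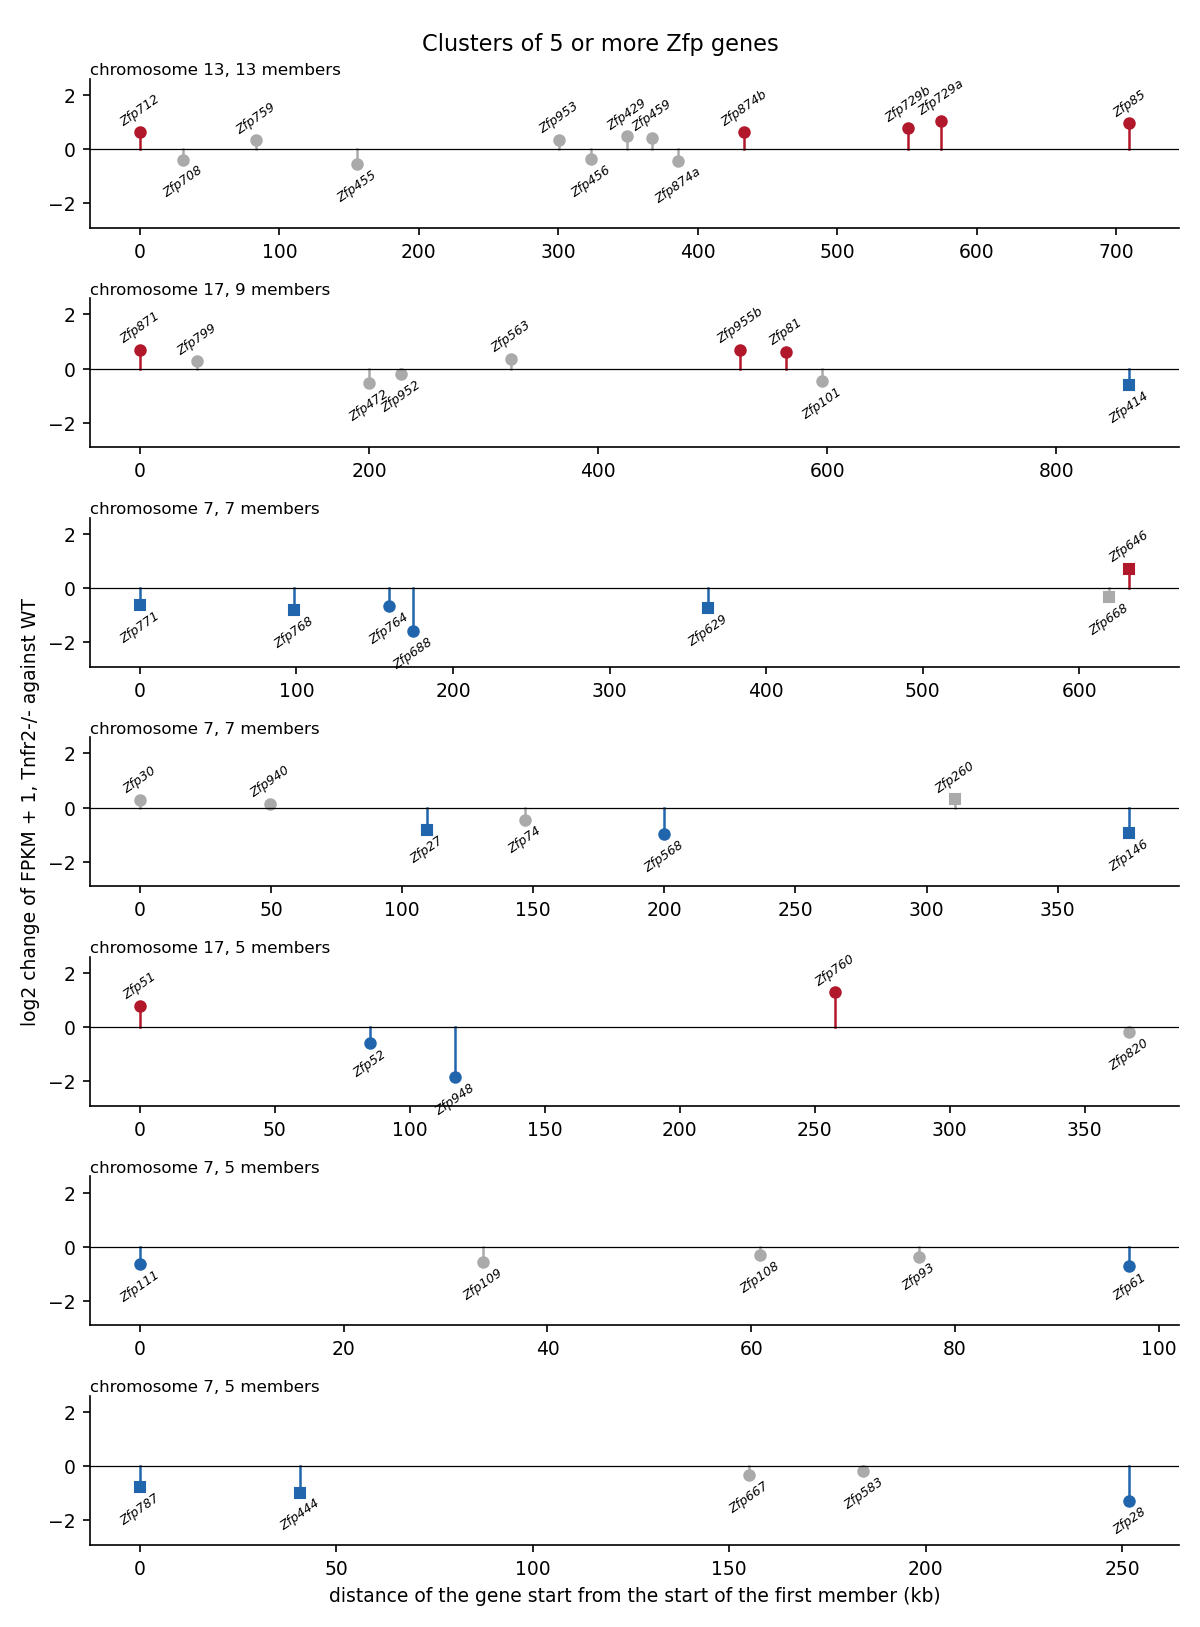
Log2 change of FPKM + 1 in Tnfr2-/- against WT (y axis) for the members of the 7 clusters of 5 or more Zfp genes, against the distance of each gene start from the start of the first member in kb (x axis). Red marks genes called higher, blue called lower and grey not called, with circles for KRAB genes and squares for others. The cluster of 13 genes on chromosome 13 has 5 red and 0 blue points, and that of 5 genes on chromosome 17 has 2 of each.

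No Zfp gene was called between Tnfr2-/- and Tnfr1-/- MDSCs. The log2 differences of this comparison do not use the WT samples. Its p-values do, since all 6 samples were fitted together and share an estimate of the spread, and the ANOVA filter also included WT. With limma 0 members were higher (against 0.842% of all listed genes) and 0 lower (against 0.610%). At an unadjusted p-value under 0.05, 17 members were higher (10.5%, against 15.9%) and 20 lower (12.3%, against 8.01%). The log2 differences ran from −0.581 to 0.794 with a median of −0.008, against 0.060 over all listed genes, and the standard errors of the members had a median of 0.088. In 78 members (48.1%, against 51.0%) the samples of the knockouts did not overlap. The 8 members with the lowest unadjusted p-values are given, chosen after their values were seen.

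Zfp354c, a KRAB gene with 11 fingers, had the lowest p-value. It was at 0.221 and 0.191 FPKM in WT, 0.555 and 0.637 FPKM in Tnfr1-/-, and 0.245 and 0.191 FPKM in Tnfr2-/-. Tnfr1-/- thus lay above both other groups, and Tnfr2-/- overlapped WT. The log2 difference of Tnfr2-/- from Tnfr1-/- was −0.39 (SE 0.04, limma adjusted p = 0.0306), the only member past the adjusted threshold, but under the fold threshold (without that threshold 0 members were higher, against 1.38% of all listed genes, and 1 lower, against 1.28%), on a scale where 1 FPKM had been added to values under 1 FPKM.

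Zfp1, a KRAB gene with 8 fingers, was at 3.48 and 3.77 FPKM in Tnfr1-/- and 2.18 and 2.37 FPKM in Tnfr2-/-, with 1.66 and 1.57 FPKM in WT (limma adjusted p = 0.0511 between the knockouts). Zfp579 was at 3.14 and 3.53 FPKM in Tnfr1-/- and 1.97 and 1.83 FPKM in Tnfr2-/- (limma adjusted p = 0.0578). Zfp287, a gene with SCAN and KRAB domains, was at 0.876 and 0.909 FPKM in Tnfr1-/- and 0.385 and 0.538 FPKM in Tnfr2-/-. In these 3 genes Tnfr2-/- was the lower of the knockouts without overlap. With median-ratio scaling 3 members, Zfp579, Zfp1 and Zfp507, were called lower in Tnfr2-/- (1.85%, against 1.45% of all listed genes) and 0 higher (against 1.09%). Quantile normalization gave 0 higher (against 1.48%) and 1 lower (against 1.43%), and a pseudocount of 0.1 gave 0 higher (against 1.18%) and 1 lower (against 0.964%). Without Tnfr2-/- replicate 1, 2 members were called higher and 1 lower, Zfp579 (log2 difference −0.62).

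Zfp358, with 9 fingers and no KRAB box, was at 3.27 and 3.30 FPKM in Tnfr1-/- and 5.07 and 4.99 FPKM in Tnfr2-/-, with 7.71 and 8.23 FPKM in WT (limma adjusted p = 0.0571 between the knockouts). Zfp105 was at 0.0650 and 0.116 FPKM in Tnfr1-/- and 0.380 and 0.292 FPKM in Tnfr2-/-. Zfp710, one of the 5 most abundant members, was at 20.6 and 19.0 FPKM in WT, 19.1 and 19.8 FPKM in Tnfr1-/-, and 25 and 25.6 FPKM in Tnfr2-/-. Zfp358, Zfp105 and Zfp710 were higher in Tnfr2-/- than in Tnfr1-/- in both samples, and none passed the adjusted threshold. Zfp2 was at or under 0.168 FPKM in every sample.

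**Figure D5:**
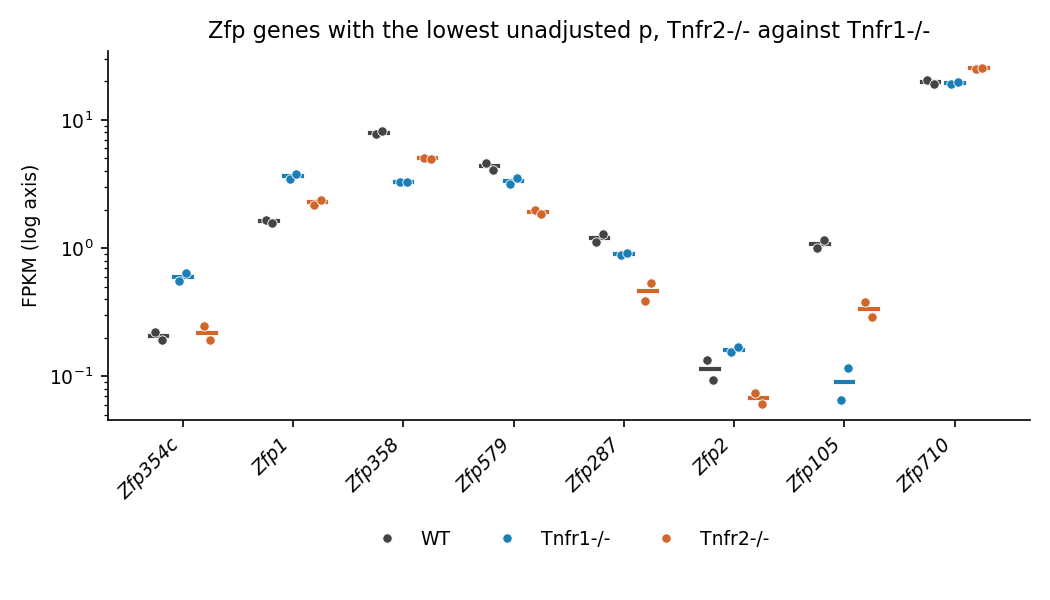
FPKM (log axis) of the 8 Zfp genes with the lowest unadjusted p-value between Tnfr2-/- and Tnfr1-/- MDSCs, with each sample as a point and each group mean as a bar. The 2 knockout groups do not overlap in any of the 8, and for Zfp354c the Tnfr2-/- points (0.245 and 0.191) lie beside the WT points (0.221 and 0.191), the higher of them above both.

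Of 22 corepressor and heterochromatin genes that KRAB proteins work through, 14 are in the table and Trim28 itself is not. In Tnfr2-/- 1 was higher and 9 lower (64.3%, against 57.1% of all listed genes), with a median log2 change of −0.802 against −0.736. In Tnfr1-/- 1 was higher and 10 lower (71.4%, against 60.7%), with a median of −0.917 against −0.827. These shares lay near those of all listed genes. After median-ratio scaling 2 were higher and 0 lower in Tnfr2-/- (against 21.8% and 21.0% of all listed genes). In Tnfr1-/- 3 were then higher and 0 lower (against 23.3% and 22.1%). Atf7ip, a partner of the histone methyltransferase SETDB1, was the one called higher as deposited. It was at 3.35 and 3.47 FPKM in WT, 11.2 and 12.6 FPKM in Tnfr1-/-, and 12 and 10.9 FPKM in Tnfr2-/-. Hdac1, a histone deacetylase, had the largest log2 change downward in Tnfr2-/- (−1.43), followed by Cbx3, a heterochromatin protein (−1.29), and both stayed negative after median-ratio scaling (−0.47 and −0.38). Between the knockouts 0 of the 14 were called in limma in either direction, with log2 differences from −0.124 to 0.301.

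The Zfp36 proteins, which are not listed, act with other decay proteins on AU-rich transcripts. Of 25 genes for mRNA deadenylation and decay, 14 are in the table, with 4 higher (28.6%, against 13.6% of all listed genes) and 3 lower (21.4%, against 57.1%) in Tnfr2-/- (median log2 change 0.018), and 4 higher and 3 lower in Tnfr1-/- (median −0.073, beside 14.1% and 60.7%). After median-ratio scaling 9 were higher and 0 lower in each comparison, with medians of 0.885 and 0.931. On that scale 21.8% of all listed genes were higher and 21.0% lower in Tnfr2-/-, and 23.3% and 22.1% in Tnfr1-/-. Pan2 and Pan3, which form a poly(A) nuclease, rose in Tnfr2-/- by log2 changes of 1.59 and 1.03. Of 17 transcripts with AU-rich elements, 6 are in the table, and 6 were lower in Tnfr2-/- (against 57.1% of all listed genes) and 5 in Tnfr1-/- (against 60.7%). After median-ratio scaling 3 were lower and 0 higher in Tnfr2-/-, and 4 lower and 1 higher in Tnfr1-/-. Tnf was at 27.9 and 24.2 FPKM in WT, 30.4 and 25.9 FPKM in Tnfr1-/-, and 15.7 and 15.6 FPKM in Tnfr2-/-, and was lower in Tnfr2-/- than in Tnfr1-/- by a log2 difference of −0.81 (limma adjusted p = 0.0407). Against WT the change of Tnf in Tnfr2-/- was −0.70 as deposited and 0.25 after median-ratio scaling. The macrophage chemokine Ccl2 was at 82.6 and 74.6 FPKM in WT and at most 14.6 FPKM in any knockout sample, beside the macrophage marker sums given above.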

How the data were processed

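mRNA-seq of splenic MDSCs (3 genotypes, 2 samples each) was deposited by the authors as FPKM with an ANOVA p-value per gene. RNA of the isolated cells was made into SMARTer libraries and read in single-end mode. Per the labels the reads were checked with FastQC, mm10 is the build and edgeR is named. The aligner and the tool that computed FPKM are not given in the sources used here. The deposited p-values were used only to see that 0 genes are at 0.05 or more.

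FPKM values were used as deposited, 1 was added and log2 taken. All 8191 genes and 6 samples were fitted with limma 3.58.1 (R 4.3.3, eBayes with trend, two-sided), and a call needed an adjusted p-value (Benjamini-Hochberg) below 0.05 together with a fold change above 1.5. Nothing says which experiment gave which sample, so p-values measure the spread between these samples, which may be technical. The fit was tested on simulated data. Depth per sample is unknown, so no counting error is given.

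Named were the 5 largest rises and falls per comparison among called members whose groups do not overlap, the 5 highest members, members of the role lists, and up to 3 genes of other lists. Members and lists were chosen with earlier results of these data known. Fingers, KRAB and SCAN patterns were found in coding sequences of GENCODE M21 translated here, in place of a protein table. A KRAB box needed 11 of 17 conserved residues (members had at most 10 or at least 12). Alternatives were median-ratio size factors, quantile normalization, a pseudocount of 0.1, a mean of at least 1 FPKM, only the 2 groups compared, eBayes without trend, no fold threshold, the replicate number as a block and each sample left out. Members with under 20% shared windows were looked at after the results were seen. Promoters are RefSeq's (GRCm38.p6). Python 3.11.15, NumPy 2.4.6 and pandas 2.3.3 were used.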

Additional observations from a re-analysis of the deposited data

Results flagged for a closer look

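Zfp354c differed between the knockouts under the same comparison with WT. Its log2 change against WT was 0.40 in Tnfr1-/- and 0.01 in Tnfr2-/-, and the difference of Tnfr2-/- from Tnfr1-/- was −0.390 (SE 0.04, limma adjusted p = 0.0306 over all listed genes). Both Tnfr1-/- samples (0.555 and 0.637 FPKM) were above both Tnfr2-/- samples (0.245 and 0.191 FPKM). The adjusted p-value was past the threshold and the fold change was not. All values were under 1 FPKM, and the share of its 50-base windows found in other genes was 0.270%.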

How the results depend on the processing

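The counts moved with the scaling, the pseudocount and the fold threshold. In Tnfr2-/- against WT, higher and lower members numbered 58 and 11 after median-ratio scaling, 59 and 9 with quantile normalization, 49 and 79 with a pseudocount of 0.1, and 61 and 92 without a fold threshold. In Tnfr1-/- against WT they numbered 62 and 7, 64 and 8, 48 and 76, and 61 and 93 in the same order. Between the knockouts 3 members were lower after median-ratio scaling, 1 with quantile normalization, 1 with a pseudocount of 0.1 and 1 without a fold threshold. The median log2 change of the Zfp genes was 0.278 after median-ratio scaling, 0.278 after quantile normalization, −0.527 with a pseudocount of 0.1 and −0.326 with a mean of at least 1 FPKM in Tnfr2-/-, and 0.380, 0.317, −0.552 and −0.308 in Tnfr1-/-. Between the knockouts it was −0.094 and −0.037 with the first 2 of these. Leaving out 1 sample gave medians from −0.307 to −0.273 in Tnfr2-/- and from −0.293 to −0.262 in Tnfr1-/- against WT, and between the knockouts from −0.015 to 0.000, with from 0 to 2 members higher and from 0 to 1 lower, the 2 and 1 without Tnfr2-/- replicate 1. Why these values move was not tested beyond the scaling itself.

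Reversed signs were found for Zfp207 (0.306 after median-ratio scaling and 0.201 after quantile normalization), Zfp91 (0.435 and 0.258), Zfp451 (0.279 and 0.298), Zfp598 (0.305 and 0.125), Zfp384 (0.447 and 0.266), Zfp609 (0.188 and 0.133) and Zfp644 (0.360 and 0.414) in Tnfr2-/- against WT, and for Zfp462 with quantile normalization (0.013). In Tnfr1-/- against WT they were found for Zfp207 (0.399 and 0.308), Zfp91 (0.465 and 0.290) and Zfp710 (1.057 and 0.860, and from −0.080 to 0.033 with 1 sample left out, 0.000 without Tnfr1-/- replicate 1). Over the 56 values of named genes, 719 results under an alternative kept their direction and side of the threshold, 15 lost the call, 21 gained it and 23 reversed.

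Same-numbered samples showed little shared shift: their deviations correlated at 0.02174, 0.02989 and 0.04625 across genes. These values cannot tell whether same-numbered samples came from the same experiment. With the replicate number as a block the counts were 31 higher and 49 lower in Tnfr2-/- and 34 and 49 in Tnfr1-/- against WT, and 0 and 0 between the knockouts, and the block changed no call of a named gene. Depth is unknown, the table is filtered on the groups compared, and 2 samples a group leave little room to judge spread.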

Other observations

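Other zinc finger families of the table were set beside the Zfp genes as descriptions. Of 20 genes named Zbtb and a digit, which carry a BTB domain that pairs proteins, 6 were higher and 4 lower in Tnfr2-/- against WT (median log2 change 0.353), and 10 were higher and 6 lower in Tnfr1-/- (median 0.516). Of 12 genes named Zkscan or Zscan and a digit, 1 was higher and 4 lower in Tnfr2-/- (median −0.075), and 1 higher and 2 lower in Tnfr1-/- (median −0.192). Of 11 genes named Zc3h, which bind RNA through CCCH fingers, 3 were higher and 4 lower in Tnfr2-/- (median −0.225), and 4 higher and 4 lower in Tnfr1-/- (median −0.294). Over all listed genes 13.6% were higher and 57.1% lower in Tnfr2-/- and 14.1% and 60.7% in Tnfr1-/-, with medians of −0.736 and −0.827. After median-ratio scaling the higher and lower genes in Tnfr2-/- numbered 13 and 1 (Zbtb), 3 and 1 (Zkscan or Zscan) and 7 and 0 (Zc3h), beside 21.8% and 21.0% of all listed genes, and in Tnfr1-/- 12 and 1, 4 and 0, and 7 and 0, beside 23.3% and 22.1%. As deposited, 0 genes of any of these families were called between the knockouts in limma.

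The 18 members that share at least 20% of their windows with other genes had 5 higher and 4 lower in Tnfr2-/- (median log2 change −0.239), and the 144 others had 26 higher and 45 lower (median −0.307). In Tnfr1-/- the counts were 2 and 2 of 18 and 32 and 47 of 144. After median-ratio scaling the higher and lower members in Tnfr2-/- numbered 8 and 1 of 18 and 50 and 10 of 144, and in Tnfr1-/- 7 and 0 of 18 and 55 and 7 of 144. Over all listed genes the shares were 13.6% and 57.1% as deposited and 21.8% and 21.0% after scaling in Tnfr2-/-. In Tnfr1-/- these shares were 14.1% and 60.7% as deposited and 23.3% and 22.1% after scaling. Among the 43 members with a mean under 1 FPKM 1 was higher and 9 lower in Tnfr2-/-, against 30 and 40 of the 119 members at 1 FPKM or more. After median-ratio scaling the counts were 6 and 3 of the 43 and 52 and 8 of the 119. Adding 1 FPKM shrinks the log2 changes of genes this low, so few of them can pass the fold threshold. The difference between these 2 classes is therefore set in part by the scale.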
